A study of Mus musculus with 9 samples.

Results

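The 7 genes of the neural crest melanocyte lineage followed here were Kit, Kitl, Ednrb, Edn3, Sox10, Mc1r and Erbb3. They were chosen by gene symbol from 31829 distinct gene names on the array, and 8 probes of 39429 carried one of the 7 symbols, 2 of them for Ednrb and 1 for each of the others. The study laser dissected the choroid (CH), the retinal pigment epithelium (RPE) and the photoreceptors (PR) from frozen sections of eyes of female C57BL/6 mice (the J substrain according to the methods), labelled as 6 months old (within 2 weeks), with no treatment or transgene. The methods give a lower age than the labels do, and the labels are followed here. Each tissue had 3 arrays, which gives 9 arrays, and each sample was taken from 1 whole eye. The RNA of the tissue was amplified and labelled with Cy5, and it was hybridised against a Cy3-labelled common reference of mouse RPE/choroid RNA with the same strain, sex and age. The value given for a gene is therefore log2(Cy5/Cy3), its level in the tissue relative to that reference, on 1 array.

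Melanocytes of the choroid arise from the neural crest, while the RPE, which is also pigmented, arises from the wall of the optic cup. Migrating melanocyte precursors depend on a pair of ligand and receptor systems: endothelin 3 (Edn3) acts on the endothelin receptor type B (Ednrb), and Kit ligand (Kitl) acts on the receptor tyrosine kinase Kit. Sox10 is a transcription factor of the neural crest that melanocytes and Schwann cells keep, Erbb3 is a neuregulin receptor of Schwann cells and neural crest precursors, and Mc1r is the melanocortin 1 receptor, which sets the type of melanin that a melanocyte makes. Several of these genes are expressed by other cells too: Kit is also known from mast cells, Ednrb from glia and vessel walls, and Sox10 and Erbb3 from Schwann cells.

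The arrays had a similar share of probes well above background, with 1 exception. Between 62.1% and 71.2% of probes were well above background in Cy5 on 8 arrays, whereas the array RPE 2 had 91.7%. PR 1 and PR 3 had 586 and 536 outlier-marked spots, against 228 to 349 on the other arrays. The methods give RNA integrity as a range per tissue and not per array. The arrays lay on 3 slides: slide 1 held PR 1 and PR 3, slide 2 held CH 1, CH 3, RPE 1 and RPE 3, and slide 3 held CH 2, RPE 2 and PR 2. The 10 rod markers were called lower in RPE than in PR without exception, and 8 of 9 RPE markers were called higher in RPE than in PR. The remaining one, Best1, was well above background on 1 RPE array and on no CH array. Of the 9 RPE markers 6 were called lower in CH than in RPE, among them Rpe65 with a log2 difference of -1.59. The summed Cy5 level of the 9 RPE markers was 1718490 to 2150850 on the CH arrays, 2389940 to 2633380 on the RPE arrays and 322792 to 443071 on the PR arrays, so these markers were well measured in the CH samples too. Conversely, the 11 endothelial markers, which mark vessels, summed to 232761 to 330765 on the CH arrays and 226338 to 294509 on the RPE arrays, against 21102 to 26877 on the PR arrays. The rod markers summed to 2975970 to 4351700 on the PR arrays. They also summed to 859948 to 1302600 on the CH arrays and 1243270 to 1574160 on the RPE arrays. In bulk samples such as these, fewer cells of a type and less RNA per cell cannot be told apart.

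Across the 3 tissues, 5 of the 7 genes (Edn3, Ednrb, Kit, Kitl and Sox10) had their highest mean in the CH, the next in the RPE and the lowest in the PR. Mc1r followed another order, with its lowest mean in the RPE and its highest in the PR, and Erbb3 had nearly the same level in all 3 tissues. A gene was called where its fold change (FC) exceeded 2.5 and its B-H adjusted p-value was under 0.01 in limma. In the CH against the RPE 2 of the 7 genes were called, Edn3 and Mc1r, both higher in the CH, where 1.74% of all probes were called in either direction and 1.55% as higher in the CH. In the RPE against the PR 6 of the 7 were called, 5 higher and 1 (Mc1r) lower in the RPE, beside 15.5% of all probes called, 10.3% higher and 5.17% lower. In the CH against the PR 5 were called, all of them higher in the CH, beside 18.4% of all probes called, 12% higher and 6.33% lower. The median log2 difference over the 7 genes was 1.13 for CH minus RPE, 3.02 for RPE minus PR and 4.19 for CH minus PR, where the medians over all probes were -0.04, -0.01 and -0.05. The 3 comparisons share arrays, so they are not independent of each other. Every member probe was well above background in Cy5 on every array except Erbb3 on RPE 3, and none was saturated. Even so, Cy5 as scanned on the PR arrays was low for Kit (445 to 488) and Kitl (327 to 432), where the median spot read 617 to 963. Edn3 read 690, 253 and 1019 on PR 1 to PR 3, where the median spot read 668, 617 and 963. The FC of these genes against the PR thus rests on PR signals below or near the median spot.

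**Figure D1:**
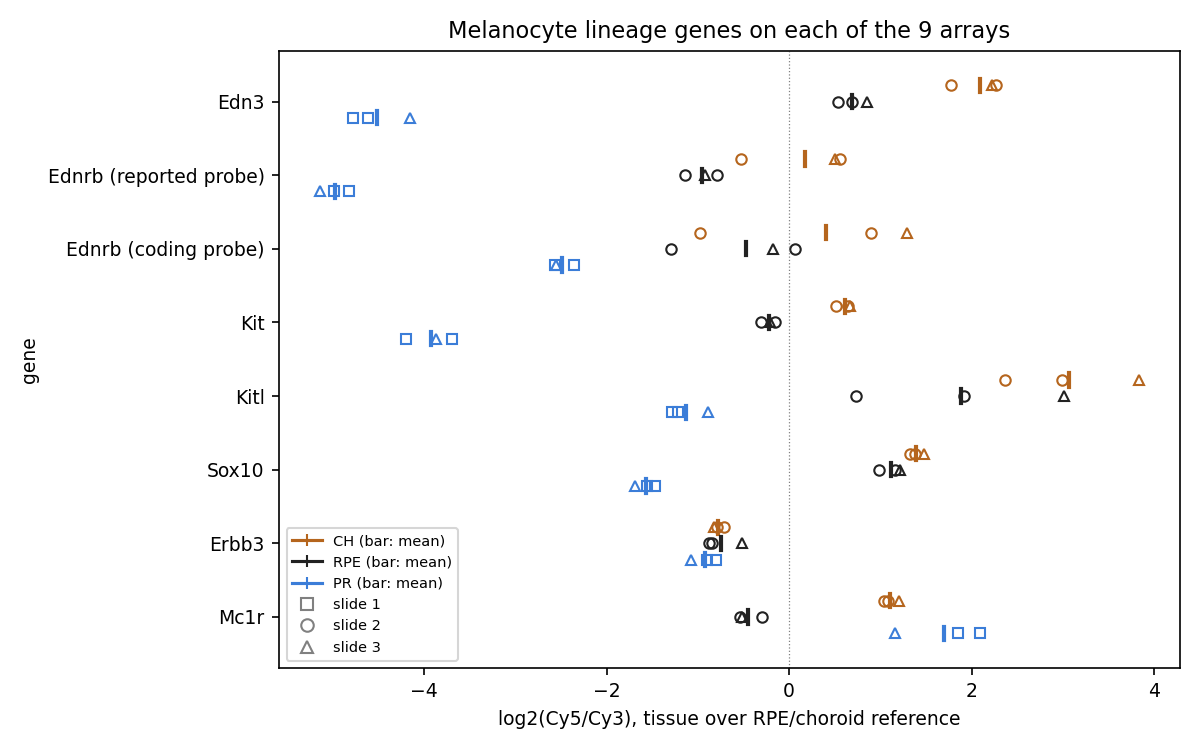
log2(Cy5/Cy3) of each member probe (x axis) by gene (y axis), with 1 open symbol per array, coloured by tissue and shaped by slide, and a bar at the mean of the 3 arrays of a tissue. The PR arrays lie far to the left of the CH and RPE arrays for Edn3, Ednrb, Kit, Kitl and Sox10, all 9 arrays nearly coincide for Erbb3, and for Mc1r the RPE arrays are leftmost, between -0.54 and -0.29.

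The endothelin ligand Edn3 showed the widest range of the 7 genes. Its probe lies at chr2:174608971-174609030 of mm9, the build of the probe coordinates in the files. Edn3 read 2.27, 2.23 and 1.77 on CH 1, CH 2 and CH 3, then 0.68, 0.85 and 0.53 on RPE 1 to RPE 3, and -4.61, -4.16 and -4.78 on PR 1 to PR 3. The 3 tissues did not overlap on any array. Its level was 2.64-fold higher in CH than in RPE, a log2 difference of 1.40 (SE 0.19, 95% CI 0.98 to 1.82, B-H adjusted p-value 0.000906). It was 36.9-fold higher in RPE than in PR (log2 difference 5.21, SE 0.19, adjusted p-value 2.25e-08) and 97.5-fold higher in CH than in PR (6.61, adjusted p-value 4.63e-09). The FC of Edn3 between CH and RPE was close to the limit of 2.5: without CH replicate 1 its log2 difference was 1.31 with an adjusted p-value of 0.00425, below that limit, and Edn3 was then not called.

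The signals as scanned show what the ratio does for Edn3. On slide 3 its Cy5 signal was 37660 on CH 2, against 93389 on CH 1 and 88589 on CH 3, and its Cy3 signal on CH 2 was 3577 against 8395 and 9288. The RPE arrays had the same arrangement, with 14160 in Cy5 and 3965 in Cy3 on RPE 2 but 35060 and 29792 in Cy5 and 9916 and 10064 in Cy3 on RPE 1 and RPE 3. Both channels were thus dimmer on slide 3 for this probe, and within slides the CH minus RPE difference of the log2 ratio was 1.41 on slide 2 (2 arrays against 2) and 1.38 on slide 3 (1 against 1). In the Cy5 channel alone, quantile normalised, the difference was nearly as large (1.36) but had an adjusted p-value of 0.196. The authors' own table of log2 values gave 1.32 with 0.185.

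**Figure D2:**
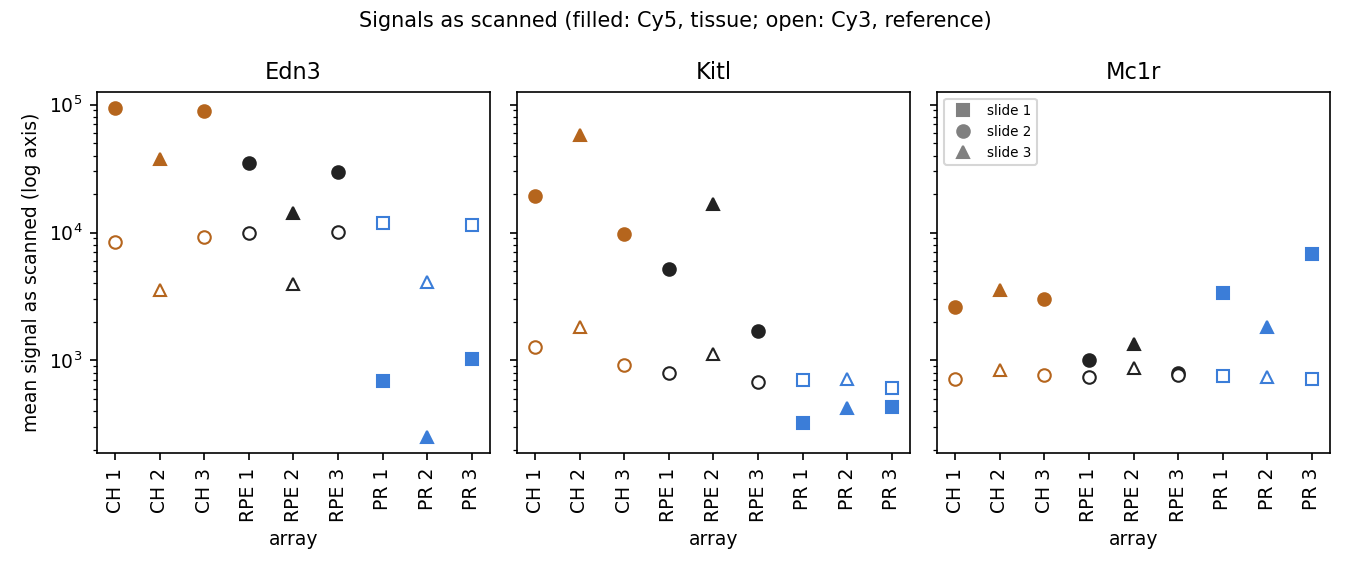
Mean signal as scanned (y axis, log scale) on each array (x axis) for Edn3, Kitl and Mc1r, with filled symbols for Cy5 (tissue) and open symbols for Cy3 (reference), coloured by tissue and shaped by slide. For Edn3 both channels are lower on slide 3, with Cy3 between 3577 and 4123 there and between 8395 and 11881 elsewhere, while the Cy3 signal of Mc1r stays between 715 and 868.

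Its receptor Ednrb is a G protein-coupled receptor and had a pair of probes, both on the minus strand of chromosome 14 (mm9). The brighter one, at chr14:104214484-104214543, was taken as the reported probe, and the other lies 6327 bases upstream in the gene, at chr14:104220870-104220929. The latter matches coding sequence of the receptor, and it is shown here because the 2 probes differed in size of change (60 bases, 5′ to 3′):

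Ednrb coding probe: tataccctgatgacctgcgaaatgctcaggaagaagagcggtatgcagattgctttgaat

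The reported probe read 0.56, 0.51 and -0.53 on CH 1 to CH 3, -0.80, -0.92 and -1.14 on RPE 1 to RPE 3, and -4.82, -5.14 and -4.98 on PR 1 to PR 3. CH 3 was about 1 log2 unit below the other CH arrays, though still above all RPE arrays. Ednrb was 2.19-fold higher in CH than in RPE (log2 difference 1.13, 95% CI 0.55 to 1.71), with an adjusted p-value of 0.0120, and was not called. It was called in the RPE against the PR (16.3-fold, log2 difference 4.03, SE 0.26, adjusted p-value 8.01e-07) and in the CH against the PR (35.7-fold, adjusted p-value 1.15e-07). Without CH replicate 3 the CH minus RPE difference was 1.49 with an adjusted p-value of 0.000211, which passes both limits.

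The coding probe printed above moved in the same direction but by less. Its values were 0.90, 1.29 and -0.97 in the CH, 0.06, -0.17 and -1.30 in the RPE and -2.35, -2.55 and -2.56 in the PR. CH 3 and RPE 3 again lay below the other arrays of their tissue, by more than at the reported probe, and the CH and RPE arrays overlapped. The log2 difference was 0.88 for CH minus RPE (95% CI -0.33 to 2.08, adjusted p-value 0.298). For RPE minus PR it was 2.02 (4.06-fold, adjusted p-value 0.0101, not called) and for CH minus PR 2.90 (7.45-fold, adjusted p-value 0.00110, called). The methods describe labelling from the 3′ end of the transcript, and whether the distance of a probe from that end bears on this difference was not tested.

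Other genes of the endothelin system were mostly higher in CH than in PR. Of 7 partners (the ligands Edn1 and Edn2, the receptor Ednra, the converting enzymes Ece1 and Ece2 and the G protein subunits Gnaq and Gna11), 1 was called in the CH against the RPE, 3 in the RPE against the PR and 6 in the CH against the PR, all of them higher in the first tissue. Edn1, an endothelin best known from endothelial cells, was higher in CH than in RPE by 1.36 on the log2 scale (SE 0.17, adjusted p-value 0.000663). It was well above background on only 1 of 3 PR arrays. Ednra, the type A receptor, differed by 1.10 between CH and RPE, short of the FC limit, and by 3.79 between RPE and PR (called). It lay near the reported Ednrb probe in both (1.13 and 4.03), while the Ednrb coding probe gave 0.88 and 2.02. Edn2 was called in none of the 3 comparisons, and its log2 difference was -0.46 for CH minus RPE and -0.82 for RPE minus PR. For CH minus PR it was -1.27, with an adjusted p-value of 0.00282 in limma but short of the FC limit, so Edn2 went the other way. The median over the 7 partners was 0.43 for CH minus RPE. Glia of the retina are another source of Ednrb, and of 7 Muller glia markers 1, Dkk3 (1.45), was called between CH and RPE. The median of the Muller glia markers for CH minus RPE was -0.16, and their lowest value was -0.49 (Glul). In the CH against the PR 4 of them were called higher, while Slc1a3 (-0.98) and Aqp4 (-0.58) were lower in the CH and not called. That list summed in Cy5 to 880177 to 907738 in the CH, 720253 to 820608 in the RPE and 213502 to 302231 in the PR, and its part in the Ednrb values was not tested.

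The receptor Kit was lowest in the PR and differed less between CH and RPE. Its probe (chr5:76052394-76052453, mm9) read 0.51, 0.67 and 0.65 in the CH, -0.16, -0.21 and -0.31 in the RPE and -3.70, -3.87 and -4.20 in the PR. The 3 tissues did not overlap. Between CH and RPE the difference was 0.83 (SE 0.13, 95% CI 0.54 to 1.12), which is 1.78-fold: its adjusted p-value was 0.00189, but the FC did not reach 2.5 and Kit was not called. Kit was 13.0-fold higher in RPE than in PR (log2 difference 3.70, adjusted p-value 2.05e-08) and 23.1-fold higher in CH than in PR (4.53, adjusted p-value 4.99e-09). Within slides, CH minus RPE was 0.81 on slide 2 and 0.87 on slide 3.

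Mast cells also carry Kit, so the levels of their markers are given beside it. By limma 0 of 10 mast cell markers were called between CH and RPE, with 5 higher and 1 lower in the CH at an unadjusted p under 0.05, and their median difference was 0.51. In the RPE against the PR 2 were called higher and 1 lower. In the CH against the PR 6 were called higher and 1 (Hdc) lower, with a median of 1.54. The 6 included the proteases Cpa3 (2.72), Cma1 (1.86) and Mcpt4 (1.58). Of the defining proteases, Cpa3 differed by 1.19 between CH and RPE (not called) and by 1.53 between RPE and PR (called), while Tpsab1 was well above background on a single RPE array. The IgE receptor subunit gene Ms4a2 was not well above background on any of the 9 arrays. The summed Cy5 level of the list was 12442 to 20504 in the CH, 12036 to 13774 in the RPE and 32100 to 36906 in the PR, and in the PR it included Hdc, which was called lower in RPE than in PR (-2.46). The part of mast cells in the Kit values was not tested.

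The ligand Kitl, a membrane-bound or shed growth factor, had the largest SD among the reported probes in the CH (0.74, n = 3) and in the RPE (1.14, n = 3). At its probe (chr10:99558962-99559021, mm9) the CH arrays read 2.99, 3.83 and 2.37 and the RPE arrays 1.92, 3.02 and 0.73, while the PR arrays read -1.21, -0.89 and -1.29. In each tissue the array on slide 3 was the highest, and CH and RPE overlapped, RPE 2 standing above CH 1 and CH 3. The CH minus RPE difference was 1.18 with an SE of 0.52 (95% CI 0.01 to 2.34). In limma its unadjusted p was 0.0489 and its adjusted p-value 0.146, so Kitl was not called. With slide as a block the same difference had an adjusted p-value of 0.0248, again above the limit of 0.01, and within slides it was 1.36 on slide 2 and 0.82 on slide 3. Without the array RPE 2 it was 1.74 with an adjusted p-value of 0.0296, without RPE 3 it was 0.60, and over all alternatives it ran from 0.60 to 1.97 without a call.

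Kitl was called in both comparisons with the PR. It was 8.09-fold higher in RPE than in PR (log2 difference 3.02, SE 0.52, adjusted p-value 0.000779) and 18.3-fold higher in CH than in PR (4.19, adjusted p-value 7.07e-05). On slide 3 alone, with 1 array per tissue, RPE minus PR was 3.91 and CH minus PR was 4.72. In the Cy5 channel alone the RPE minus PR difference was 3.29 with an adjusted p-value of 0.0137, and Kitl was then not called in that comparison.

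**Figure D3:**
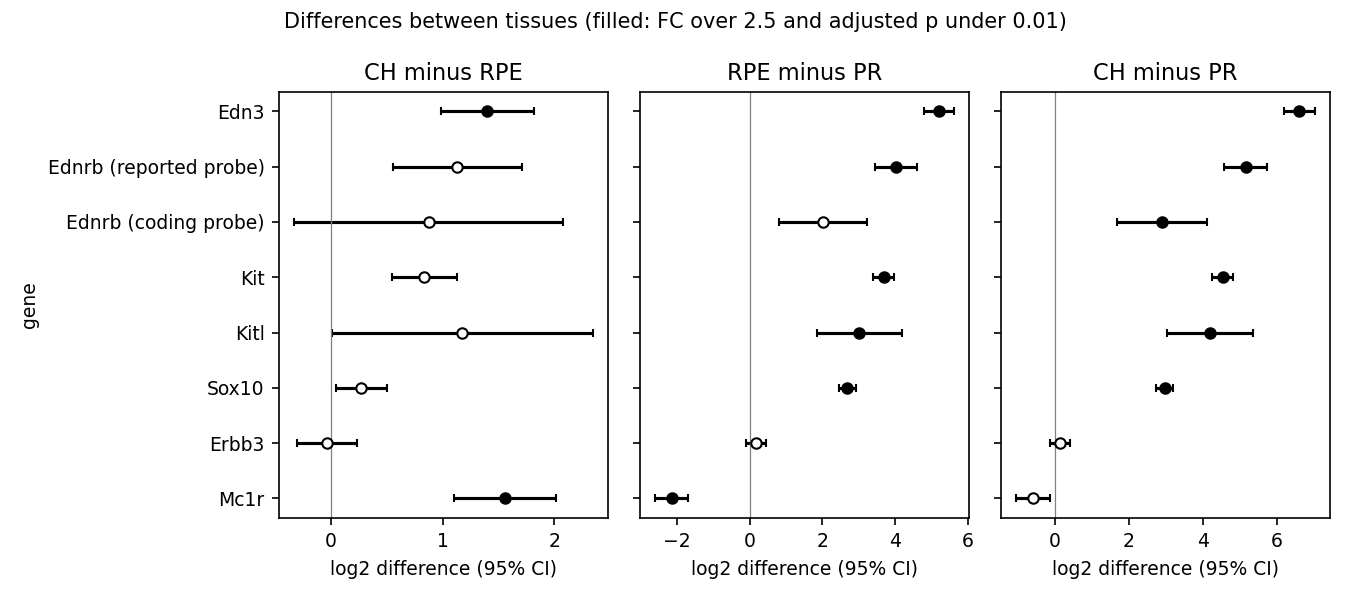
log2 difference of each member probe (x axis, with 95% confidence intervals from limma) by gene (y axis) in 3 panels, CH minus RPE, RPE minus PR and CH minus PR, with filled points for FC over 2.5 and B-H adjusted p-value under 0.01. In the first panel only Edn3 (1.40) and Mc1r (1.56) are filled, and in the other panels Edn3 lies farthest to the right, at 5.21 and 6.61.

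Among 12 genes of the Kit receptor family and of the adaptors and phosphatases that act with it, 1 was called in the CH against the RPE, 6 in the RPE against the PR and 7 in the CH against the PR, none of them lower. The 1 gene was Pdgfra, the platelet-derived growth factor receptor alpha and also a fibroblast marker, with a CH minus RPE difference of 1.52 (adjusted p-value 0.000164). The adaptor Shc1 differed by 1.22 and Pdgfrb, the receptor of pericytes, by 1.06, and neither reached the FC limit. In the RPE against the PR, Pdgfrb differed by 5.10 and Shc1 by 1.70, and both were called. The median of the list for CH minus RPE was 0.29.

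Sox10 separated the PR from both outer tissues but hardly the CH from the RPE. Its probe (chr15:78985518-78985577, minus strand, mm9) read 1.38, 1.48 and 1.32 in the CH, 0.99, 1.22 and 1.16 in the RPE and -1.47, -1.68 and -1.55 in the PR. Every CH array was above every RPE array, with the lowest CH array at 1.32 and the highest RPE array at 1.22. The CH minus RPE difference was 0.27 (1.21-fold, SE 0.10, 95% CI 0.05 to 0.50, adjusted p-value 0.0859), and it was not called. With median centring in place of loess it was 0.58, again not called. Sox10 was 6.46-fold higher in RPE than in PR (2.69, adjusted p-value 3.00e-08) and 7.81-fold higher in CH than in PR (2.96, adjusted p-value 1.15e-08).

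Other transcription factors of the neural crest and of melanoblasts varied in their difference between CH and RPE. Of 12 on the list, 4 were called higher in CH than in RPE: Foxd3, Pax3, Twist1 and Snai2. None was called lower. Foxd3, an early neural crest factor, differed by 2.09 (SE 0.23, adjusted p-value 0.000406), Pax3, which acts upstream of Mitf, by 1.76 (SE 0.21), Twist1 by 1.59 (SE 0.11) and Snai2, a factor of migrating neural crest cells, by 1.52. At the other end, Ets1 had a difference of 0.24 and Sox9, a factor that the neural crest and glia use, one of -0.81 (adjusted p-value 0.0325), and neither was called. Neither Foxd3 nor Snai2 was well above background on any PR array. Mitf, the central regulator of pigment cells and shared with the RPE, differed by 0.50 between CH and RPE (adjusted p-value 0.0374, not called) and by 4.07 between RPE and PR (called). In the RPE against the PR 9 of the 12 were called higher, and in the CH against the PR 11 of 12.

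Markers of other cells also differed between CH and RPE. Of 11 Schwann cell markers 5 were called higher in the CH, among them S100b (1.97), Prx (1.70), Egr2 (2.05) and Gfra3 (1.77), and none was called lower. The other 6 did not pass the test, such as Ngfr (0.34) and L1cam (-0.08), with the lowest at -0.46, and the median of the list was 0.74. The list summed to 374947 to 459723 in Cy5 on the CH arrays, 196475 to 219170 on the RPE arrays and 38866 to 43606 on the PR arrays. All 7 fibroblast markers were called higher in CH than in RPE, with a median of 1.88 and Col1a1, a collagen chain, at 3.62, and they summed to 939767 to 1050340 in the CH against 287369 to 392026 in the RPE. The endothelial markers went otherwise: 0 of 11 were called between CH and RPE by limma (1 at an unadjusted p under 0.05), with a median of 0.17 and a range from -0.27 for Kdr to 0.67 for Vwf. The lowest of the fibroblast markers was Pdgfra (1.52). Which cells the 7 genes were read from was not tested.

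**Figure D4:**
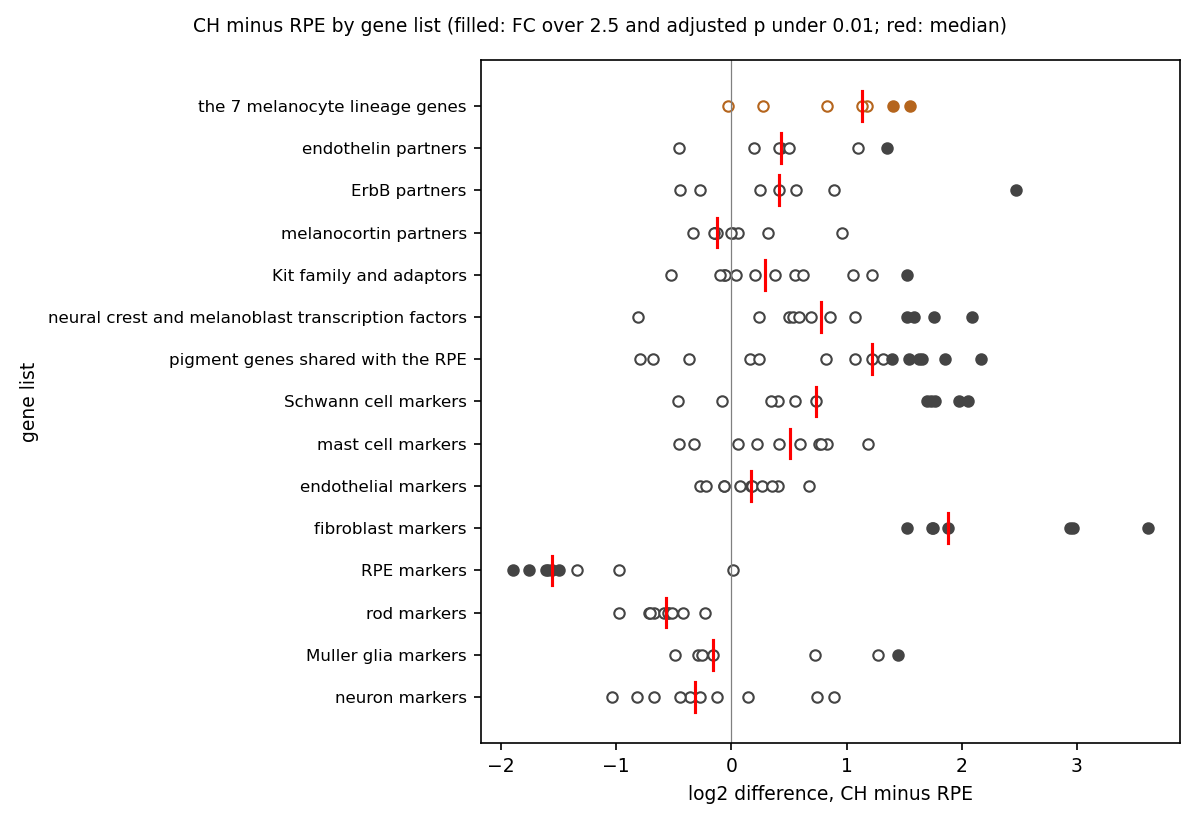
log2 difference CH minus RPE (x axis) of each gene, 1 point per gene at its reported probe, by gene list (y axis), with filled points for FC over 2.5 and B-H adjusted p-value under 0.01 and a red line at the median of each list. The 7 melanocyte lineage genes have a median of 1.13, fibroblast markers lie to the right of 0 (median 1.88), endothelial markers around 0 (median 0.17) and RPE markers to the left (median -1.56).

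Erbb3 did not separate the tissues. Its probe lies on the minus strand at chr10:128006424-128006483 (mm9), at the end of the coding sequence, and it is shown because this 1 probe carries the result (60 bases, 5′ to 3′, with the stop codon in capitals):

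Erbb3 probe: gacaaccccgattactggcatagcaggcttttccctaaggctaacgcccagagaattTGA

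The CH arrays read -0.71, -0.83 and -0.79, the RPE arrays -0.87, -0.52 and -0.84 and the PR arrays -0.80, -1.07 and -0.90. The 3 tissues overlapped. The CH minus RPE difference was -0.03 (95% CI -0.30 to 0.24, adjusted p-value 0.886), the RPE minus PR difference 0.18 (-0.09 to 0.45, adjusted p-value 0.252) and the CH minus PR difference 0.15 (-0.12 to 0.41, adjusted p-value 0.344). The sign for CH minus RPE was not stable, and it was 0.02 with median centring in place of loess and 0.08 without RPE replicate 2. The gene was also dim: its Cy5 signal as scanned was 266 to 517 on 8 arrays and 1131 on RPE 2, and it was the only member probe not well above background on 1 of the arrays.

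The other ErbB receptors and their neuregulin ligands gave 1 call of 7 between CH and RPE, higher in the CH. That gene was Egfr, the epidermal growth factor receptor, with 2.47 (SE 0.14, adjusted p-value 3.40e-05). Erbb2, the partner with which Erbb3 signals, differed by 0.56 between CH and RPE (not called), 1.29 between RPE and PR (not called) and 1.86 between CH and PR (called). The neuregulins Nrg1 and Nrg2 differed by 0.25 and 0.90 between CH and RPE and were not called, and Nrg3 was well above background on 1 of the 9 arrays. Erbb4, the remaining receptor, was not called in the CH against the RPE either (0.41).

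Mc1r was the only one of the 7 genes with its lowest level in the RPE. At its probe (chr8:125934583-125934642, mm9) the CH arrays read 1.04, 1.20 and 1.09, the RPE arrays -0.29, -0.51 and -0.54, and the PR arrays 1.85, 1.16 and 2.09. Every RPE array was below every CH and every PR array. Mc1r was 2.94-fold higher in CH than in RPE (log2 difference 1.56, SE 0.20, 95% CI 1.10 to 2.01, adjusted p-value 0.000848), and 4.42-fold higher in PR than in RPE (RPE minus PR -2.15, SE 0.20, adjusted p-value 1.23e-05). Its Cy3 signal was low and even, from 715 to 868 over the 9 arrays, so the differences came from Cy5, with 794 to 1346 on the RPE arrays, 2614 to 3551 on the CH arrays and 1833 to 6734 on the PR arrays.

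Between CH and PR, Mc1r differed by less than the FC limit. The CH minus PR difference was -0.59 (95% CI -1.05 to -0.13, adjusted p-value 0.0329), PR 2 lay among the CH arrays, and the gene was not called. Without PR replicate 2 the difference was -0.86 with an adjusted p-value of 0.000315, again short of the FC limit. PR 2 was the only PR array that shared a slide with another tissue. On that slide CH minus PR was 0.04 and RPE minus PR was -1.67, and with slide as a block they were -0.04 and -1.60. Slide 1 held PR arrays only, so with that block the PR level rests on PR 2 alone. For PR 1 and PR 3 a difference of tissue and one of slide cannot be told apart. Over all alternatives CH minus PR lay between -0.88 and -0.04 and RPE minus PR between -2.61 and -1.60. Within slides CH minus RPE was 1.48 on slide 2 and 1.71 on slide 3.

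The next gene on the chromosome in RefSeq is Tubb3, a neuronal tubulin and one of the 10 neuron markers. It differed by -1.12 for RPE minus PR (adjusted p-value 6.94e-05), 0.14 for CH minus RPE and -0.98 for CH minus PR, and was called in none of these. The neuron markers as a list did not share its direction for RPE minus PR, with a median of 0.39, 1 called higher and 0 lower. Their median for CH minus PR was -0.20, with 2 called higher and 0 lower. Whether Tubb3 bears on the Mc1r values was not tested. Of 11 partners of the melanocortin system 0 were called between CH and RPE by limma (3 at an unadjusted p under 0.05), 1 was called higher in RPE than in PR and in the CH against the PR 1 was called higher and 1 lower. The gene called higher was Mrap, an accessory protein of melanocortin receptors (RPE minus PR 1.49, CH minus PR 2.44). The gene called lower was Pomc, the precursor of the hormones that activate Mc1r, with a CH minus PR difference of -1.48 (adjusted p-value 3.36e-06), and like Mc1r it had its highest mean in the PR. Asip, the agouti protein that antagonises Mc1r, was well above background on 1 RPE array only.

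Upstream sequences are shown for context for Mc1r, with its low RPE level, and for the ligand Edn3 and its receptor Ednrb. Each is the 250 bases before the annotated start from RefSeq (GRCm38.p6, a newer build than that of the probes), 5′ to 3′ on the strand of the gene, and capitals mark matches to CATGTG, the core of the M-box that Mitf is known to bind. The windows are chr8:123406832-123407081 (plus strand), chr2:174760369-174760618 (plus strand) and chr14:103843702-103843951 (minus strand).
Mc1r: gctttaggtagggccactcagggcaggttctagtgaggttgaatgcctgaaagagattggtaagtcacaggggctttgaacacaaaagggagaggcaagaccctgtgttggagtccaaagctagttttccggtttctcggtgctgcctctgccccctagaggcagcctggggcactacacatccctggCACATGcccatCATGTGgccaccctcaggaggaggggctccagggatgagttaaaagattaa
Edn3: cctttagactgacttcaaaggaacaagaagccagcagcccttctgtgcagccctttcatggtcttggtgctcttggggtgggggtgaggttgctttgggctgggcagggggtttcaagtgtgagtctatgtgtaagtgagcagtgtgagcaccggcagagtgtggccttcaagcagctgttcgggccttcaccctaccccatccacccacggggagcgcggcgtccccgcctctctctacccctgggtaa
Ednrb: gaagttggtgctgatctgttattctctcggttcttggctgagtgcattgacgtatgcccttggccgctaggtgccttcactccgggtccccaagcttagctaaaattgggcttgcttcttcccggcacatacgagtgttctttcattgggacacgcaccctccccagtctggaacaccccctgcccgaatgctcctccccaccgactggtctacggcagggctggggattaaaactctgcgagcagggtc

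Each of 3 motifs was searched on both strands in the windows of the 5 members that had one (Kit, Kitl, Ednrb, Edn3 and Mc1r). CATGTG occurred in Mc1r alone, at 2 places starting at positions -62 and -51 relative to the start, and in 12.2% of the 27025 windows of all genes. No matches overlapped each other. The E-box CACGTG was in none of the 5 and in 6.05% of all windows. AACAAT, a core recognised by Sox factors, was in none of the 5 and in 9.65% of all windows. These are descriptions of letters in a short window and say nothing of binding.

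Pigment genes that melanocytes and the RPE share give the background of pigmented cells in the same samples. Of 15 such genes 6 were called higher in CH than in RPE and none lower, and 14 were called higher in RPE than in PR. Tyrp1, an enzyme of melanin synthesis, was higher in the CH by 2.17 (SE 0.18), Slc45a2, a melanosome transporter, by 1.85 (SE 0.12) and Myo5a, the motor that moves melanosomes, by 1.66 (SE 0.11). The list was not uniform: Tyr, the rate-limiting enzyme, had a CH minus RPE difference of -0.68 (adjusted p-value 0.00872, short of the FC limit) and Oca2 one of -0.37. Their median was 1.22, next to 1.13 for the 7 lineage genes.

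The 7 genes fell into 3 patterns over the 9 arrays. The log2 ratios of Kit, Ednrb, Edn3 and Sox10 correlated with each other at Pearson's r of at least 0.98, Kitl with these at 0.93 to 0.95, Erbb3 with the other 5 genes of the first pattern at 0.51 to 0.58, and Mc1r with the other 6 at -0.62 to -0.38. These are descriptions over 9 arrays that hold 3 tissue levels and share 1 reference. By the same measure over 18681 probes the genes most like Edn3 were Nrp2, Ptgir and Ppp1r3d, and those most like Kit were Utrn, P2ry14 and Nudt3, the latter at 0.999. Sox10 was followed most closely by Vrk2, Rbms2 and Bcl2l12, and Ednrb by Aph1b, Cyp2j8 and C1ra. The closest genes were less close for Kitl (Rfc1 at 0.988, then Ceacam2 and Iqgap1), Mc1r (Rrp15 at 0.977, then Mutyh and Pus7l) and Erbb3 (Scn2a1 at 0.954, then Npb and Nox4).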

How the data were processed

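Mouse CH, RPE and PR (3 arrays each) were measured on dual-colour Agilent arrays. The files deposited by the authors hold, per spot, red (Cy5) and green (Cy3) intensity values and flags from Agilent Feature Extraction 9.5.3.1 (other per-spot flag columns per the file headers mark outliers, controls, saturation and signal above background). A further table deposited by the authors holds normalised log2 values, which followed the Cy5 channel (r from 0.985 to 0.999 per array with log2 Cy5); what normalisation it had is not given in the sources used here, and it served as an alternative only. The study's notes name R 2.14.0 and limma.

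Here, with R 4.3.3 and limma 3.58.1, mean signals were background corrected (normexp, offset 50) and loess normalised within each array, with controls and outlier-marked spots (228 to 586 per array) left out, and spots of 1 probe were averaged. The Cy5 level summed over marker lists is Cy5 after loess and Aquantile normalisation. All 9 arrays entered 1 limma fit with tissue means, and p-values were adjusted by Benjamini-Hochberg over 39429 probes per comparison. A call needed FC over 2.5 and an adjusted p-value under 0.01. Dyes were not swapped, and a dye effect of a probe cancels between tissues that share the reference. For genes with several probes, the brightest in Cy5 was reported. From each pathway list the text names up to 3 genes with the largest CH minus RPE difference among those called in any comparison, all 7 lineage genes, defining markers, and the 3 probes most correlated with each gene; the other list genes and Tubb3 were named after their values were seen. Array number limits the precision, and since nothing states that the eyes came from separate animals, p-values measure the spread between these samples. The scripts were tested on simulated data. The members and lists were chosen with earlier results of these data known. Sequences came from the array files and RefSeq (GRCm38.p6). The 16 alternatives are given in the closing section.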

Additional observations from a re-analysis of the deposited data

How the results depend on the processing

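Under 16 alternatives, including each array left out in turn, the number of lineage genes called in the CH against the PR was 5 throughout, and in the RPE against the PR it was 6 except for 5 with the Cy5 channel alone, where Kitl was lost. In the CH against the RPE it was 2, but 1 with the Cy5 channel alone (Mc1r), 0 with the authors' table and 3 with median centring, which added Ednrb (1.51, adjusted p-value 0.00366). In the authors' table Mc1r differed by 1.63 with an adjusted p-value of 0.0108. Leaving out 1 array gave 1 to 3 calls there, 5 to 5 in the CH against the PR and 6 to 6 in the RPE against the PR: without CH replicate 1 Edn3 was lost, and without CH replicate 3 Ednrb was added. Erbb3 changed sign for CH minus RPE with median centring (0.018) and lay between -0.097 and 0.079 with 1 array left out, above 0 without RPE replicate 2 (0.079). The cause of these changes was not tested. The deviations of same-numbered arrays from their tissue means correlated at 0.16 to 0.29 for number 2, whose arrays share slide 3, but at -0.08 to -0.02 for number 1 and -0.03 to 0.29 for number 3, so the numbers were not taken as pairs, and with the replicate number as a block the counts were 2, 6 and 5. The share of all probes called between CH and RPE was 1.74%, but 4.33% with FC over 2, 3.00% with median centring and 1.03% with the authors' table. Of all probes called, 66.6% were higher in RPE than in PR and 65.6% higher in CH than in PR, against 54.5% and 53.5% with Feature Extraction processed signals and 53.0% and 53.6% with Cy5 alone. The number of arrays, and for Erbb3 its low signal over background, limit what differences could be seen.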
